A study of Homo sapiens with 3 samples.

Results

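RKO is an established, poorly differentiated human colon carcinoma cell line. Nuclear RNA was taken from cells at 0 h, the baseline that received no UV, and from cells that recovered for 0.5 h or 2 h after UV irradiation, and was sequenced by 3ʹREADS, which sequences fragments carrying the start of the poly(A) tail so that a read marks the cleavage and polyadenylation site (pA) of a transcript. The intronic pAs described here lie in genes that also have pAs in the 3ʹ-most exon and are at most 10 kb from the most distal of these. They numbered 2594, in 1756 genes, of 9772 intronic pAs in genes with 3ʹ-most-exon pAs and of 31565 pAs of all kinds. Each time point is 1 library, so that no value has a replicate check, and each test below compares the reads of 2 libraries and not 2 conditions.

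Intronic polyadenylation ends a transcript before the last exon. The RNA then lacks the downstream coding exons and the usual 3ʹ untranslated region, and the protein, where one is made, has a different C-terminus. In long introns cryptic pAs are kept silent by the U1 snRNP, which binds 5ʹ splice sites, whereas other intronic pAs form the end of a regular short isoform with its own terminal exon. An intronic pA within a few kb of the gene end can remove only the last exons of a long gene, but it can lie in the first intron of a short one.

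The libraries of 0, 0.5 and 2 h held 433261, 501838 and 438040 reads, and 1 read was 2.31, 1.99 and 2.28 RPM, the unit of the table, which scales reads to the library total. The pAs of the table were placed in introns by the authors, on the hg19 genome, and all positions are of that build. Of 9 markers of colon epithelium, 3 were in the table (KRT8, KRT18 and EPCAM), with a sum of 30.01, 25.90 and 68.49 RPM at 0, 0.5 and 2 h. KRT8 had 4, 4 and 26 reads, KRT18 2, 3 and 4, and EPCAM 7, 6 and 0, so that they did not move together. None of 6 fibroblast markers was in the table, and of 5 leukocyte markers only CD68, a lysosomal protein gene that other cells express too, which summed to 4702, 5159 and 4486 RPM.

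The sites lay between 75 and 9995 bases upstream of the most distal pA of their gene, with a median of 5228.5 bases, and 1294 of them were on the plus strand. Only 4 were downstream of the most proximal 3ʹ-most-exon pA of the gene, and 68 were within 500 bases of any 3ʹ-most-exon pA. Chromosome 19 carried 9.83% of the sites, against 4.32% of the intronic pAs farther than 10 kb and 6.82% of the 3ʹ-most-exon pAs. There were 1258 genes with 1 site, 332 with 2, 92 with 3 and 74 with 4 or more, so that sites of 1 gene share its 3ʹ-most-exon reads in every comparison. Neighbouring sites of a gene were a median of 800 bases apart. In 1114 genes all intronic pAs were within 10 kb, and 642 genes also had intronic pAs farther upstream. At the limit of 10 kb, the last sites inside were those of ACTR3, PITPNC1 and NPM1, at 9987, 9991 and 9995 bases, and the first outside were those of KCNC4, CNN2 and UBL7, at 10008, 10009 and 10011 bases.

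More of the sites had reads at 2 h than before. The sites with reads numbered 969, 908 and 1542 in the 0, 0.5 and 2 h libraries, which is 37.4%, 35.0% and 59.4% of all 2594. Sites with at least 2 reads numbered 487, 567 and 880. Every listed site had reads in at least 1 library, so a site read in a single library is listed through that library alone. Those read in a single library numbered 513 for 0 h, 428 for 0.5 h and 1089 for 2 h, while 261 sites had reads in all 3 libraries. Most of these values are small: 1129 sites (43.5%) rested on 1 read over the 3 libraries, among them 558 of the 1089 seen at 2 h only, and 235 sites had 10 or more reads in all.

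The summed reads did not follow the number of sites. The sites held 14465, 12965 and 13712 reads over the 3 times, which is 3.34% (95% Clopper-Pearson interval 3.29–3.39%), 2.58% (2.54–2.63%) and 3.13% (3.08–3.19%) of the reads in the table. Intervals of this kind cover counting error only. A single pA of NAP1L1, a histone chaperone gene, held 8667, 6165 and 5862 of these reads. With all 5 NAP1L1 sites left out, a choice made after seeing the data, the share was 1.31%, 1.33% and 1.77%. Without the 10 most abundant sites it was 0.865% (0.837–0.893%), 0.812% (0.787–0.837%) and 1.25% (1.22–1.28%), so that the remaining 2584 sites held a higher share at 2 h than in both earlier libraries.

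**Figure D1:**
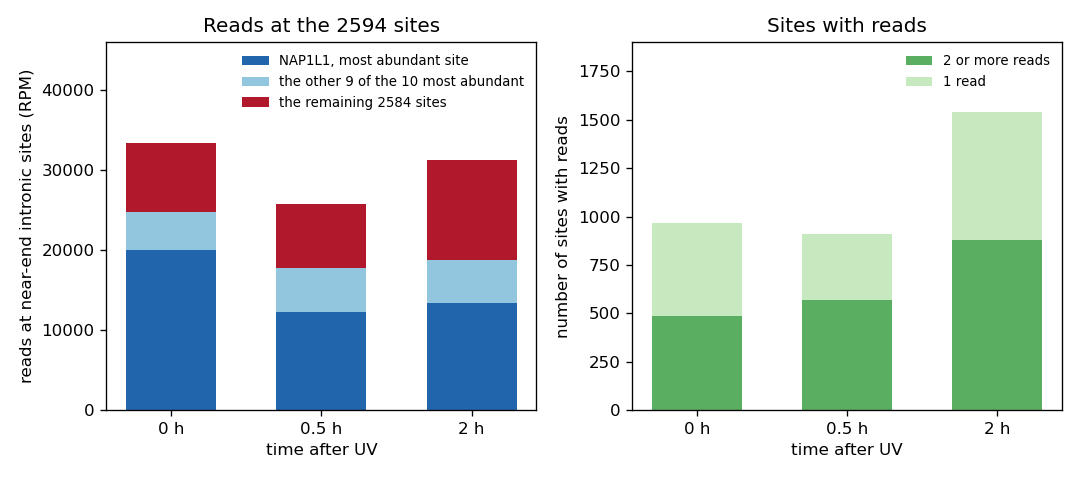
Left, reads (RPM) at the 2594 near-end intronic sites in each library (bars by time after UV), split into the most abundant NAP1L1 site, the other 9 of the 10 most abundant sites and the remaining 2584. Right, number of sites with 1 read and with 2 or more reads; the number with any reads was 969, 908 and 1542, and the remaining 2584 sites had 8644, 8116 and 12485 RPM.

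Some of these pAs held more reads in every library than all 3ʹ-most-exon pAs of their gene. The relative abundance of a site is given as its share of the reads of the site and of all 3ʹ-most-exon pAs of the gene. Among 780 sites with at least 20 such reads in each library, 27 sites of 26 genes had a share over 50% in every library. The share leaves out other intronic pAs of the gene, so that a second NAP1L1 site with 79, 98 and 60 reads is among the 27. The NAP1L1 site (chromosome 12, minus strand, position 76443346, 4183 bases from the most distal pA) had 1, 2 and 1 reads at the 3ʹ-most-exon pAs at 0, 0.5 and 2 h. ATP2A2, which encodes the SERCA2 calcium pump of the endoplasmic reticulum, had 264, 395 and 341 reads at a pA on chromosome 12 (plus strand, position 110785118, 3662 bases), and its 3ʹ-most exon had 3, 0 and 0. DBF4B, a gene of an activator of the CDC7 kinase, had 233, 535 and 341 reads at its site, and RBM19, a gene of ribosome biogenesis, had 232, 175 and 305. For both, the 3ʹ-most-exon pAs had at most 7 reads in any library. Thus nearly all reads compared in these genes were at a pA that the table counts as intronic.

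Other sites of this kind were in MTERFD2, a gene of a mitochondrial transcription factor family, with 358, 517 and 279 reads, in the ribosomal protein gene RPS29, with 153, 229 and 124, and in the hyaluronan synthase gene HAS3, with 123, 160 and 205. Shares over 50% in each library were also found in HGF, a growth factor gene, with 68.8%, 63.4% and 72.9%, and in TP53I3, a p53-induced oxidoreductase gene, with 65.5%, 73.8% and 84.8%. None of the 27 sites was within 1000 bases of a listed pA of another gene on the same strand, or between the listed pAs of another gene. Of the 10 most abundant sites, those of TCEB2 and EXOSC4 changed by more than 5 percentage points with an adjusted p under 0.05 in a window, and that of UQCRB, a complex III subunit gene, passed without adjustment only. TCEB2, the elongin B gene, had 379, 401 and 520 reads at its site and 26, 11 and 6 reads at the 3ʹ-most-exon pAs, and the share was 98.9% at 2 h against 93.6% at 0 h (adjusted p = 0.00233, Fisher's exact test). Against the most distal 3ʹ-most-exon pA alone the difference of TCEB2 was -0.19 percentage points. In EXOSC4, an RNA exosome subunit gene, the site had 180, 188 and 163 reads while the 3ʹ-most-exon pAs had 77, 62 and 15. Against the most distal pA alone, the EXOSC4 change over 0.5–2 h was 1.57 percentage points in place of 16.4, and that over 0–2 h was 0 in place of 21.5, and neither was called.

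Between 0.5 and 2 h, the share of near-end intronic sites rose far more often than it fell. Calls required a p-value under 0.05 in Fisher's exact test (two-sided, site and 3ʹ-most-exon reads in 2 libraries) and a change above 5 percentage points, and adjusted p-values are Benjamini-Hochberg values over all intronic pAs tested. Of 1863 tested sites, 137 in 122 genes had a higher share at 2 h and 35 in 33 genes a lower one. That is 7.35% and 1.88% of the sites, beside 9.04% and 1.68% of the 6960 tested intronic pAs of the whole table, so the share of rises was below that of all intronic pAs. With adjusted p under 0.05, 18 sites rose and 2 fell, 0.966% and 0.107% of the tested sites, beside 1.35% and 0.0431% in the whole table. In 94 of the 137 sites no read was found at 0.5 h. A site read in a single library is listed through it, so its p-value rests on the reads that listed it.

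The 10 largest rises among sites with at least 20 reads of site and 3ʹ-most exon in both libraries were in CDKN1A, CD274, NIPBL, E2F1, RGMB, TNFRSF1A, PITHD1, FOSL1, NOV and PDCD11. CDKN1A encodes the p21 inhibitor of cyclin-dependent kinases and is a target of p53. Its site on chromosome 6 (plus strand, position 36648636, 6473 bases from the most distal pA) had 4, 3 and 128 reads at 0, 0.5 and 2 h, and its 3ʹ-most-exon pAs had 47, 61 and 78. The 2 h library alone is high, and the share was 62.1% (95% interval 55.1–68.8%) at 2 h against 4.69% (0.977–13.1%) at 0.5 h (adjusted p = 2.02e-14, Fisher's exact test). In CD274, which encodes the immune checkpoint ligand PD-L1, a site on chromosome 9 (plus strand, position 5463318, 7229 bases) had 24, 14 and 49 reads, and the 3ʹ-most exon had 44, 34 and 6. Its share was 89.1% (77.8–95.9%) at 2 h against 29.2% (16.95–44.06%) at 0.5 h (adjusted p = 1.96e-07, Fisher's exact test). A second CD274 site, 80 bases upstream in the transcript, had 23, 3 and 12 reads and also rose over 0.5–2 h (adjusted p = 0.00258, Fisher's exact test).

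E2F1, a transcription factor gene of S phase entry, had 1, 2 and 23 reads at a pA on chromosome 20 (minus strand, position 32270727, 7238 bases) and 17, 31 and 18 reads at the 3ʹ-most exon. Its share was 56.1% (39.7–71.5%) at 2 h against 6.06% (0.743–20.2%) at 0.5 h (adjusted p = 0.00114, Fisher's exact test). FOSL1, which encodes an AP-1 subunit, had no read at its site (chromosome 11, minus strand, position 65666110, 6966 bases) at 0 and 0.5 h and 16 reads at 2 h, with 43, 37 and 29 3ʹ-most-exon reads. Its share was 35.6% at 2 h against 0% at 0.5 h, where 0 of 37 reads allow up to 9.49% (adjusted p = 0.00432, Fisher's exact test). NOV, which encodes a secreted matricellular protein, had 13, 13 and 37 site reads and 59, 44 and 27 3ʹ-most-exon reads (adjusted p = 0.0123, Fisher's exact test). PDCD11, a gene of rRNA processing, had 0, 0 and 8 site reads and 30, 34 and 16 3ʹ-most-exon reads (adjusted p = 0.0311, Fisher's exact test). In these 4 genes the site reads at 2 h were above both earlier libraries. The FOSL1 and PDCD11 sites had no reads before 2 h, so they are listed through that library alone. Their p-values thus rest on the reads that listed them and are no separate support. Against the most distal pA alone, the NOV change was 7.14 percentage points over 0.5–2 h and was not called, and FOSL1 could not be tested.

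The other 4 genes differed in which reads were higher or lower. TNFRSF1A, a TNF receptor gene, had fewer reads at its site (84, 112 and 67) at 2 h than before, but its 3ʹ-most-exon pAs had 85, 127 and 11, and the share was 85.9% at 2 h against 46.9% at 0.5 h (adjusted p = 3.36e-07, Fisher's exact test). RGMB, a BMP co-receptor gene, had 10, 3 and 12 site reads beside 159, 142 and 16 3ʹ-most-exon reads (adjusted p = 5.07e-06, Fisher's exact test). NIPBL, the cohesin loader gene, had 25, 10 and 36 site reads and 13, 25 and 5 3ʹ-most-exon reads, so that its share was 65.8%, 28.6% and 87.8% at 0, 0.5 and 2 h (adjusted p = 5.24e-05 for 0.5–2 h, Fisher's exact test). Against the most distal pA alone, the NIPBL change over 0.5–2 h was 9.09 percentage points in place of 59.2, and neither this nor the RGMB change was called. PITHD1 completed the 10 largest rises and was not called after adjustment (0, 0 and 8 site reads, adjusted p = 0.142, Fisher's exact test). Over the 137 sites that rose, site reads were higher and 3ʹ-most-exon reads lower at 2 h in 126, site reads were higher with 3ʹ-most-exon reads not lower in 6, and site reads were not higher in 5. The 137 sites held 1521 reads at 2 h against 719 at 0.5 h, and the 3ʹ-most-exon pAs of their 122 genes held 2443 against 4868.

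**Figure D2:**
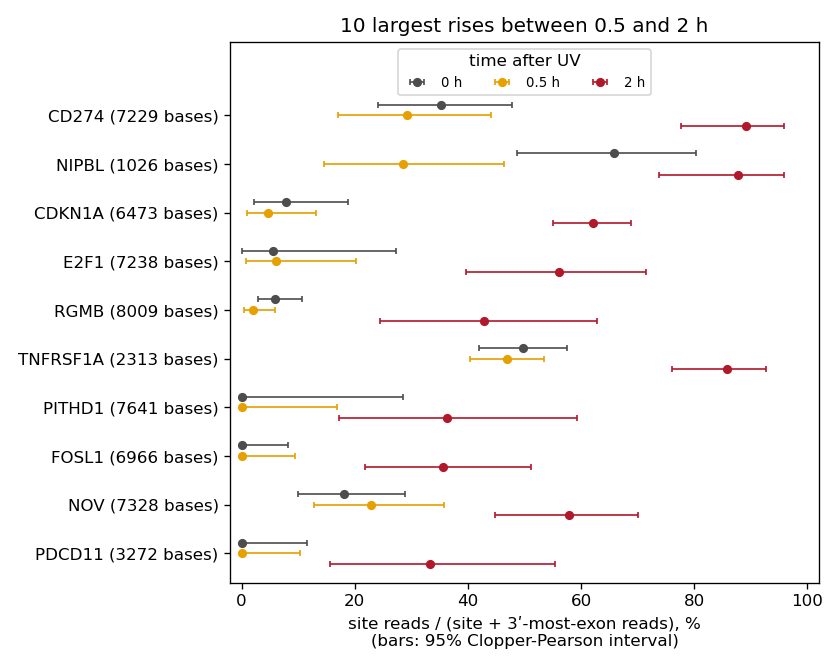
Share of reads at the site among site and 3ʹ-most-exon reads (x axis, %) for the 10 largest rises between 0.5 and 2 h, with the distance of each site to the most distal pA. Points are single libraries (gray 0 h, yellow 0.5 h, red 2 h) and bars are 95% Clopper-Pearson intervals. At 2 h the shares of CDKN1A (62.1%), CD274 (89.1%) and NIPBL (87.8%) are outside the intervals of the earlier libraries. For NIPBL the intervals at 0 h (48.6–80.4%) and 2 h (73.8–95.9%) overlap.

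The remaining sites that rose after adjustment, were in RPS6, SERINC3, EXOSC4, FAM210B, NPM1, TAF15 and BIRC5, with a second site each in CD274 and RGMB. Of these, FAM210B, NPM1, TAF15, BIRC5 and the second sites were named after their values were seen. NPM1, the nucleophosmin gene, had 23 site reads at 2 h against 6 at 0.5 h, and 2 against 10 reads at the 3ʹ-most exon. BIRC5, the survivin gene, had 10 against 0 site reads and 38 against 49 3ʹ-most-exon reads. In RPS6, a ribosomal protein gene, 5 site reads at 2 h stood against 0 at 0.5 h, with 81 against 306 reads at the 3ʹ-most exon.

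Falls between 0.5 and 2 h were few. The 2 with an adjusted p under 0.05 were in TPD52L2, chosen after its values were seen, and in the amino acid transporter gene SLC38A10. The SLC38A10 site (chromosome 17, minus strand, position 79225522, 9412 bases) had 4, 8 and 0 reads and the 3ʹ-most exon 14, 12 and 28 (adjusted p = 0.0287, Fisher's exact test), and it was not called against the most distal pA alone. TPD52L2 had 3 site reads at 2 h against 15 at 0.5 h, and 103 against 60 reads at the 3ʹ-most exon. Among the 5 largest falls were also EIF3B, a translation initiation factor gene with 0, 8 and 0 site reads, the spindle checkpoint gene BUB3, with 13, 18 and 7, EEF1E1, with 31, 32 and 20, and VIMP, with 6, 11 and 2. None of these 4 was called after adjustment (adjusted p between 0.0672 and 0.247, Fisher's exact test).

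Over 0–0.5 h the rises and falls were closer in number. Among 1388 tested sites, 49 had a higher share at 0.5 h and 35 a lower one, 3.53% and 2.52%, beside 4.33% and 2.16% of the 4547 intronic pAs tested in the whole table. After adjustment, 1 site rose and 3 fell, beside 0.11% and 0.132% of all tested intronic pAs. The rise, named with CIR1 below after the values were seen, was in ELP5, an Elongator subunit gene, with 15 site reads at 0.5 h against 4 at 0 h and 1 against 13 3ʹ-most-exon reads (adjusted p = 0.0244, Fisher's exact test).

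The falls by 0.5 h were in NAIF1, a nuclear apoptosis-inducing factor gene, ERCC1, which encodes a subunit of the nuclease of nucleotide excision repair, and CIR1. ERCC1 had 26, 5 and 8 reads at a site on chromosome 19 (minus strand, position 45916694, 6102 bases) and 47, 96 and 83 3ʹ-most-exon reads, and its share was 4.95% (95% interval 1.63–11.2%) at 0.5 h against 35.6% (24.7–47.7%) at 0 h (adjusted p = 3.08e-04, Fisher's exact test). NAIF1 had 22, 6 and 21 site reads and 32, 98 and 81 3ʹ-most-exon reads (adjusted p = 1.56e-04, Fisher's exact test). CIR1 had 0 site reads at 0.5 h against 9 at 0 h, and 10 against 0 at the 3ʹ-most exon. Thus ERCC1 and NAIF1 were low at 0.5 h. At 2 h the share of ERCC1 was 8.79% against 35.6% at 0 h (adjusted p = 0.00431, Fisher's exact test), but against the most distal pA alone the change was -7.41 percentage points and was not called. That of NAIF1 was 20.6% against 40.7% (p = 0.0089, adjusted p = 0.205, Fisher's exact test). Falls without adjustment included PLAUR, the urokinase receptor gene, whose site at position 44152816 on chromosome 19 had 23, 8 and 11 reads with 22, 39 and 17 at the 3ʹ-most exon (adjusted p = 0.138, Fisher's exact test). For this PLAUR site the direction turned when the most distal pA alone was taken, with a difference of 14.8 percentage points. CD164 also fell, with 25, 11 and 7 site reads, and MED8, IVNS1ABP, COA4, GOSR2 and DMWD were the largest rises among well-read sites, all with adjusted p-values between 0.314 and 0.596 (Fisher's exact test).

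Set against 0 h, the 2 h library had a higher share at 127 of 1996 tested sites and a lower one at 25, which is 6.36% and 1.25%, beside 9.44% and 0.972% of the 7205 intronic pAs tested. After adjustment 27 sites rose and 3 fell, 1.35% and 0.150% of the tested sites, beside 1.78% and 0.139% in the whole table. The falls were in ERCC1, MTHFSD and RDH11, of which the last 2 were named after their values were seen. MTHFSD had 2 site reads at 2 h against 11 at 0 h, and RDH11 had 0 against 12. The 0 h, 0.5 h and 2 h libraries enter these windows more than once, so the windows are not independent. CDKN1A had a share of 62.1% at 2 h against 7.84% at 0 h (adjusted p = 8.08e-10, Fisher's exact test), and CD274 89.1% against 35.3% (adjusted p = 5.78e-07, Fisher's exact test). NOV, RGMB and FOSL1 were also called after adjustment over this span, though none of them against the most distal pA alone, whereas ACAD8 (11 site reads against 3, adjusted p = 0.0601, Fisher's exact test) and NIPBL (87.8% against 65.8%, adjusted p = 0.364, Fisher's exact test) were not. PGF, which encodes placental growth factor, was chosen after its values were seen as a site with no reads at 0 h: it had 26 site reads at 2 h and 0 3ʹ-most-exon reads, against 0 and 9 at 0 h (adjusted p = 7.85e-06, Fisher's exact test).

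In several genes many near-end sites had reads at 2 h. Only sites with reads in at least 1 library are listed, so these counts include sites that are listed through the 2 h library alone. ZYX, which encodes the focal adhesion protein zyxin, had reads at 3, 1 and 13 of its 13 sites, and they summed to 8, 10 and 56 reads with 232, 238 and 220 at the 3ʹ-most exon. The main ZYX site (chromosome 7, plus strand, position 143086363, 1841 bases) had 4, 10 and 27 reads, with a share of 10.9% at 2 h against 1.69% at 0 h (adjusted p = 0.00341, Fisher's exact test). CDKN1A had reads at 2, 2 and 9 of its 10 sites, which summed to 6, 5 and 149 reads. Its sites other than the one above had at most 6 reads each. FOSL1 had no reads at its 6 sites at 0 and 0.5 h, and reads at all 6 at 2 h, 27 in sum, so that all 6 are listed through that library. E2F1 had reads at 1, 1 and 4 of its 4 sites.

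Other genes with many sites did not show this pattern. MBOAT7, a phospholipid acyltransferase gene with 8 sites, had reads at 4, 5 and 1 of them, with 5, 8 and 3 reads. The 9 SERINC3 sites summed to 212, 146 and 128 reads and 30, 37 and 10 at the 3ʹ-most exon, and nearly all reads were at 2 of the sites. Among genes with 4 or more sites, 39.1%, 34.1% and 67.4% of the sites had reads at 0, 0.5 and 2 h, beside 35.9%, 33.5% and 57.0% in genes with 1 site. Since every listed site had reads in at least 1 library, reads at 2 h add to the number of sites of a gene. The difference at 2 h is thus in part built into the grouping, and no conclusion is drawn from it.

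**Figure D3:**
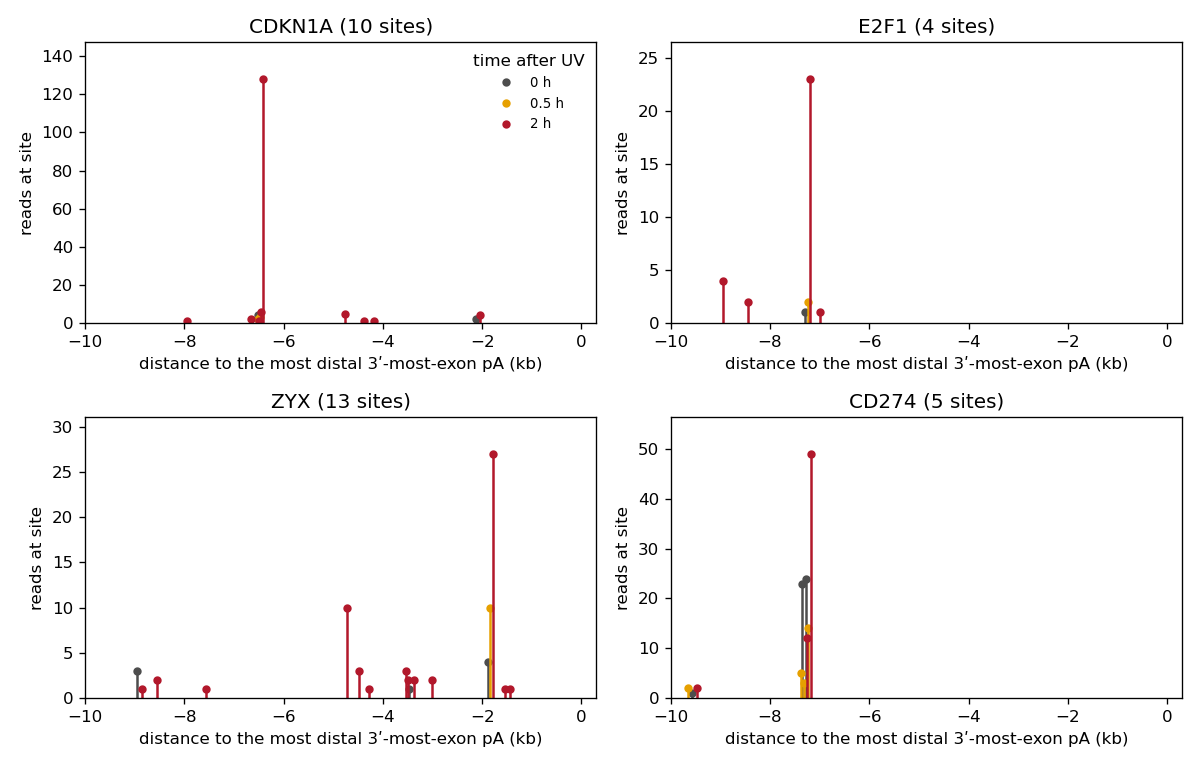
Reads at each near-end intronic site (y axis) by distance to the most distal 3ʹ-most-exon pA (x axis, kb, gene end at right) in CDKN1A, E2F1, ZYX and CD274. Each point is 1 site in 1 library (gray 0 h, yellow 0.5 h, red 2 h; points of different libraries are shifted sideways by a small amount); 1 site dominates in CDKN1A (128 reads at 2 h) and E2F1 (23 reads), while ZYX has reads at all 13 sites at 2 h. Only sites with reads in at least 1 library are listed.

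Gene groups differed in how many such sites they had and in the reads at them. Only sites with reads in at least 1 library are listed, so the counts below include sites listed through the 2 h library alone. Of all 2594 near-end sites, 37.4%, 35.0% and 59.4% had reads at 0, 0.5 and 2 h. No conclusion is drawn from the counts of sites with reads in a list. In 9 of 30 p53 target genes, 22 sites were found, with 25, 51 and 224 reads at 0, 0.5 and 2 h, and reads at 3, 4 and 20 of the sites. CDKN1A was the only one called up of 16 tested in the 0.5–2 h window, and the sites other than its main one held 21, 48 and 96 reads, most of them at TP53I3. Immediate early and stress response genes had 39 sites in 12 of 42 genes, with 7, 16 and 98 reads, and reads at 5, 9 and 33 sites. Of 28 tested in the 0.5–2 h window, 3 rose, in FOSL1 and ZFP36L1, and none fell. ZFP36L1, which encodes an mRNA decay factor, had 1, 5 and 18 reads at its main site and 13, 6 and 0 at the 3ʹ-most exon, which passed adjustment over 0–2 h (adjusted p = 1.61e-05, Fisher's exact test) and not over 0.5–2 h (adjusted p = 0.0604, Fisher's exact test).

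The SR and hnRNP splicing factors had 31 sites in 15 of 39 genes, with 12, 18 and 83 reads and reads at 5, 6 and 26 sites. Of 29 tested in the 0.5–2 h window, 4 rose, in HNRNPA2B1, HNRNPK and SRSF7, and 1 fell, in PTBP3, all without adjustment only. The HNRNPA2B1 site had 0, 0 and 12 reads with 158, 98 and 139 at the 3ʹ-most exon, and passed adjustment over 0–2 h (adjusted p = 0.0125, Fisher's exact test). Cytosolic ribosomal protein genes had 43 sites in 27 of 79 genes, and these held 220, 286 and 211 reads, of which RPS29 had 153, 229 and 124. Reads were found at 10, 16 and 31 of the 43 sites, and of 38 tested 2 rose over 0.5–2 h, in RPL31 and RPS6. Actin and cytoskeleton genes had 36 sites in 12 of 29 genes, with 24, 35 and 97 reads and 1 rise of 31 tested, that of ZYX. Cell cycle regulators had 18 sites in 10 of 32 genes, with 40, 50 and 65 reads, and of 14 tested 2 rose, both in E2F1, and 1 fell, in BUB3.

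The other lists had few sites or few calls. DNA repair and damage signaling genes had 13 sites in 8 of 45 genes, with 37, 25 and 51 reads and 1 rise of 9 tested over 0.5–2 h, at a second ERCC1 site with 0, 0 and 6 reads. ATF4 and amino acid stress genes had 14 sites and 2 rises of 12 tested, in DDIT3 and SLC3A2, and heat shock proteins and chaperones had 17 sites and 1 rise of 14 tested, in HSPH1. Translation factors had 23 sites and 1 fall of 19 tested, in EIF3B, while over 0–0.5 h 3 of 11 tested rose, in EIF3B, EIF4A1 and EIF5B. The snRNP proteins had 15 sites, with 11, 14 and 15 reads and no call of 10 tested over 0.5–2 h, where reads were at 7, 5 and 7 of the sites. Over 0–0.5 h the snRNP list had 3 falls, in LUC7L2 and SNRPB, and 1 rise, in SF3B1, of 12 tested, and over 0–2 h 1 rise, in SF3B2. None of these calls of the translation and snRNP lists passed adjustment. The other lists had at most 1 rise and 1 fall each over 0–0.5 h, of which only the ERCC1 fall passed adjustment. Over 0–2 h they had at most 4 rises and 1 fall each. Cleavage and polyadenylation factors had only 2 sites in 2 of 23 genes, and RNA polymerase II and elongation genes 5 sites in 4 of 40, with 3, 0 and 5 reads and no call over 0.5–2 h. POLR2A, EFNB2 and DSCR3, which the study names for intronic pAs, had no site within 10 kb. These counts stand beside the 9.04% and 1.68% of all tested intronic pAs that rose and fell over 0.5–2 h. The same values were 4.33% and 2.16% over 0–0.5 h, and 9.44% and 0.972% over 0–2 h. No list was tested as a set.

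The sites were compared with intronic pAs farther from the gene end to show where they differ. Over 0.5–2 h, rises made up 7.35% of the sites within 10 kb, 9.15% of 3182 pAs at 10 to 50 kb and 10.5% of 1915 pAs over 50 kb. The median change of the share was 2.94, 7.14 and 11.1 percentage points over the same classes, and the median number of 3ʹ-most-exon reads behind a site in the 2 libraries was 25, 20 and 13. Whether this difference in reads has a part in the difference in calls was not tested, nor was the difference between the classes. At 0 h, 37.4% of the near-end sites had reads, against 29.5% of the pAs at 10 to 50 kb and 26.1% of those over 50 kb, while at 2 h the values were 59.4%, 63.7% and 64.4%. The number of sites with reads in the 2 h library alone was 1089 of 2594 within 10 kb and 3607 of 7178 farther upstream.

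Within 10 kb, reads were found at 50.5%, 41.4% and 51.5% of the 99 sites up to 1 kb from the most distal pA. In the 1356 sites at 5 to 10 kb the values were 35.5%, 33.5% and 61.9%. In the 642 genes that also had farther intronic pAs, 53 of 648 tested near-end sites rose over 0.5–2 h (8.18%), against 110 of 1177 tested farther pAs of the same genes (9.35%). The same values were 2.50% against 4.63% over 0–0.5 h, and 6.20% against 9.56% over 0–2 h. These differences were not tested. Without NAP1L1, these near-end sites summed to 1922, 2075 and 2409 reads, and the farther pAs of the same genes to 3154, 3133 and 4386. Levels at the 5 to 10 kb sites were 0.568%, 0.546% and 0.821% of the table reads, and those of the 10 to 50 kb pAs 1.64%, 1.59% and 2.61%.

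**Figure D4:**
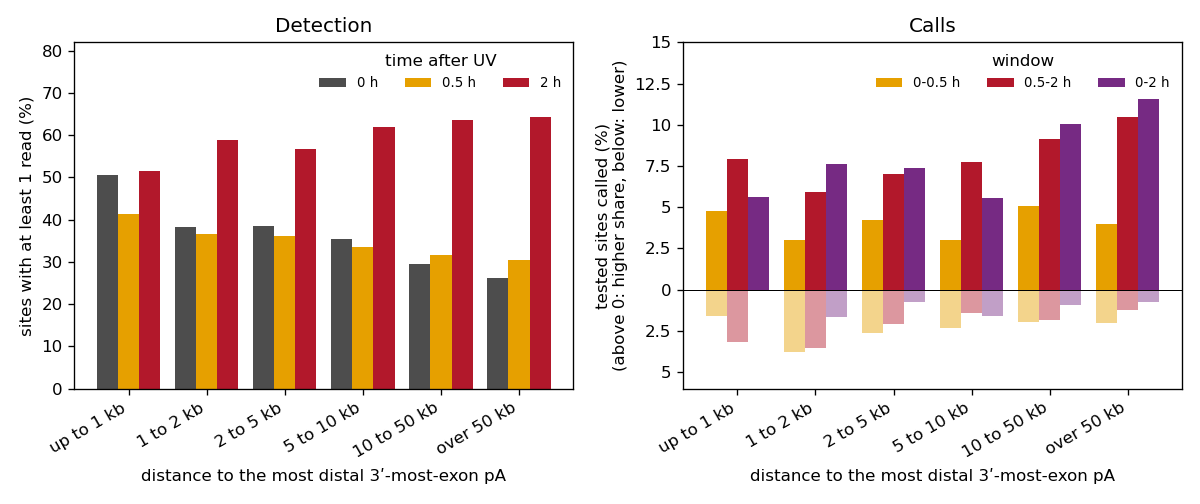
Left, percent of intronic pAs with at least 1 read in each library by distance to the most distal 3ʹ-most-exon pA; right, percent of tested pAs called with a higher share (above 0) or a lower share (below 0, paler) at the later time of each window. Bars are single libraries or library pairs without replicates; detection at 0 h was 50.5% up to 1 kb and 26.1% over 50 kb. Rises over 0.5–2 h were 7.94% up to 1 kb, 5.92% at 1 to 2 kb, 7.04% at 2 to 5 kb and 7.75% at 5 to 10 kb. They were 9.15% at 10 to 50 kb and 10.5% over 50 kb.

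The median log2 RPM ratio of the sites, with 0.1 RPM added to each value, was 4.57 for 2081 sites with reads in either library of the 0.5–2 h comparison. This is the ratio of 1 read at 2 h to 0 at 0.5 h, and all 8151 intronic pAs with reads in either library had the same median. In the 369 sites with reads in both libraries the median was 0.19, beside 0.19 in all 1124 intronic pAs with reads in both. Both values are those of equal reads in both libraries, and they differ from 0 through the library totals. For 0–0.5 h the median was -0.21 over sites with reads in either library, and -0.20 over the 372 with reads in both, which are again the values of equal reads. Over all 5076 intronic pAs with reads in either library the 0–0.5 h median was 0.20, and over the 1055 with reads in both it was -0.20. The difference was not tested.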

How the data were processed

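3ʹREADS libraries of nuclear RNA from RKO cells at 0, 0.5 and 2 h after UV were analysed, with 1 library per time point. Per the labels, reads were processed with CASAVA and aligned to hg19 with Bowtie2 (versions not given in the sources used here). Reads with untemplated As at their 3ʹ end were retained, and the authors deposited, for each pA, its gene, its class (3ʹ-most exon, intron, upstream exon) and RPM values. How reads were clustered into pAs is not given in the sources used here. All RPM values (100%) were whole multiples of 1 read, within 4.00e-11 reads, and reads were recovered from them. They sum to 433093, 501600 and 437491 reads over the table. The same read counts per pA were used in all tests. With no replicates, no count model with a spread could be fitted.

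As in the methods of the paper, each intronic pA was compared with all 3ʹ-most-exon pAs of its gene by Fisher's exact test (p under 0.05, change above 5 percentage points). A pA was tested if it had reads in either library and its gene had reads in both. Exact Clopper-Pearson 95% intervals are given for shares. They cover counting error only, since each time point has 1 library. The values carry no molecular identifiers, so reads copied from 1 molecule cannot be told apart. The test was checked on simulated data. The tools were scipy 1.17.1 and numpy 2.4.6 for tests, pandas 2.3.3 for tables and matplotlib 3.10.9 for plots, under Python 3.11.15.

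Named sites were those in the genes the paper names for intronic pAs, the largest changes among called sites holding 20 or more reads in both libraries compared, 1 per gene (10 rises and 5 falls for 0.5–2 h, 5 and 5 for the others), the 10 sites with the most reads, the 5 genes with the most sites, and up to 4 called sites of each of 13 gene lists. A gene that the rule names is not reported here. The sites and lists were chosen with earlier results of these data known. All 1756 gene names matched RefSeq symbols (1630) or synonyms (126). Sequences around the pAs and the introns themselves are not analysed here, since no genome of the build of the files was at hand.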

Additional observations from a re-analysis of the deposited data

How the results depend on the processing

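No paired analysis was possible because each time point has 1 library, and for the same reason no replicate could be left out. Of the 137 rises and 35 falls over 0.5–2 h, the 49 and 35 over 0–0.5 h and the 127 and 25 over 0–2 h, 18 and 2, 1 and 3, and 27 and 3 were left with adjusted p-values. With at least 10 reads in each library they were 82 and 17, 26 and 23, and 69 and 14. A limit of 5 kb gave 59 and 21, 28 and 19, and 67 and 8, and one of 20 kb 245 and 66, 89 and 53, and 238 and 46. With the sites of a gene summed, 23 genes fell over 0.5–2 h. Against the most distal 3ʹ-most-exon pA alone, the rises and falls were 97 and 26, 33 and 23, and 89 and 18. Thinning to 433093 reads, leaving out pAs listed under more than 1 gene, and leaving out sites within 500 bases of a 3ʹ-most-exon pA kept each of the 6 main counts within 1.5 times.

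The share of table reads at 0, 0.5 and 2 h was 2.77%, 2.04% and 2.31% within 5 kb, 4.33%, 3.52% and 4.49% within 20 kb, 0.865%, 0.812% and 1.25% without the 10 most abundant sites, and 1.31%, 1.33% and 1.77% without NAP1L1. Sites with at least 2 reads numbered 487, 567 and 880, sites with reads within 5 kb 488, 454 and 703, and within 20 kb 1546, 1490 and 2647. The median log2 RPM ratio was 1.71 over both 0.5–2 h and 0–2 h with 1 RPM added. It was 0.044, -0.019 and 0.17 over 0.5–2 h, 0–0.5 h and 0–2 h in sites with at least 10 reads, and 0.19 over 0.5–2 h in sites with reads in both libraries. Over 0–2 h the median in sites with reads in both libraries was -0.015, which is the value of equal reads in both libraries. Its sign is the reverse of that of the main value of 4.57, since sites with 0 reads in 1 library were left out. Of 95 calls of named sites, 64 were lost with adjusted p-values, and 30 were lost and 4 reversed against the most distal pA alone: PLAUR at position 44152731 (8.51 percentage points over both 0–0.5 h and 0–2 h), PLAUR at 44152816 (14.8 over 0–0.5 h) and TCEB2 (-0.19 over 0–2 h). The cause was not tested. Depth limits the sites, of which 43.5% rested on 1 read.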
